A study of Mus musculus with 21 samples.

Results

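Prrx1, Prrx2 and 8 other transcription factors of mesenchymal cells were followed through bulk RNA-seq of cultured mouse fibroblasts. The 10 genes (Prrx1, Prrx2, Twist1, Twist2, Snai1, Snai2, Zeb1, Zeb2, Tcf21 and Osr1) were taken by symbol (PRRX1, PRRX2, TWIST1, TWIST2, SNAI1, SNAI2, ZEB1, ZEB2, TCF21 and OSR1 in the tables) and were all listed among the 24447 genes shared by the 3 count tables.

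Fibroblasts of 3 types were sampled, in 7 groups of 3 samples, or 21 in all. Mouse embryonic fibroblasts (MEF, strain C57BL/6 in the labels, harvested at E10-13) came as WT, as Prrx1 mutant (genotype KI_PRRX1, allele 129S-Prrx1tm1Jfm/Mmmh, which carries lacZ in the gene) and as sgPrrx1, edited by CRISPR/Cas9 with an sgRNA against Prrx1. Wound-healing fibroblasts (C57BL/6, from dorsal wounds at day 10) and MMTV-CAF (cancer-associated fibroblasts of MMTV-PyMT mammary tumors, FVB/NJ) came as WT and as sgPrrx1. Every line, controls included, had been immortalized by overexpression of HPV E6/E, as the labels write it, and was grown to near confluence in serum. The labels name sgNS as the WT control of edited cells, and mutant and sgPrrx1 MEF were compared with the same 3 WT MEF samples. Whether these WT MEF carried sgNS or were unedited is not clear from the labels, so an effect of the vector or of editing as such cannot be told apart from that of Prrx1 loss in 1 of the MEF comparisons. Whether replicates were separate cultures or clones of 1 line is not given, so p-values measure only the spread between these samples, which may be technical. Total counts ranged from 69588655 to 134790440 per sample.

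Groups also differed in sex-linked genes, which are named here after their values had been seen. Between WT and mutant MEF the Y-linked genes moved unequally. Kdm5d, a histone demethylase, averaged 11.0 ± 0.61 CPM (read counts scaled to the size of the library; SD, n = 3) in WT and 0.01 ± 0.02 (SD, n = 3) in mutant MEF, whereas the means of Eif2s3y (2.04 and 11.9 CPM), Uty (5.68 and 8.94) and Ddx3y (15.8 and 21.2) were higher in mutant MEF. In wound-healing fibroblasts Ddx3y, an RNA helicase, averaged 20.95 ± 1.16 CPM in WT and 2.03 ± 0.13 in sgPrrx1 samples (SD, n = 3 each), while the means in the same order were 10.5 and 12.9 CPM for Kdm5d, 9.35 and 10.8 for Uty, and 24.6 and 23.4 for Eif2s3y. Both MMTV-CAF groups had 0 counts of all 4 Y-linked genes and 428 ± 38.7 (WT) and 342 ± 24.1 (sgPrrx1) CPM of Xist, the RNA of the inactive X chromosome (SD, n = 3 each), which averaged at most 0.06 CPM in the other groups. Comparisons of MMTV-CAF with another type are therefore also comparisons of samples that differ in sex-linked expression. Any difference between the lines that arose apart from Prrx1 cannot be told apart from the genotype. The label of fibroblast was checked against 10 marker genes. Their summed CPM ran from 3239 to 32314 over the 21 samples and was led by Vim, Col1a1 or Col1a2, but Lum and Fap averaged at most 1.51 CPM in any group. Ptprc, Adgre1 and Cd3e of leukocytes, Epcam of epithelium and Pecam1 of endothelium averaged at most 0.14 CPM, but other genes of the same marker lists were present. The 5 endothelial markers summed to 290 CPM in WT and 142 in sgPrrx1 wound-healing fibroblasts, nearly all of it Kdr, a VEGF receptor. The 7 mural and muscle markers were led in WT MEF by Cspg4 (NG2), at 279 CPM against 102 in mutant and 205 in sgPrrx1 MEF. Mean Cspg4 also went from 27.4 to 8.27 CPM in wound-healing fibroblasts and from 47.7 to 4.96 in MMTV-CAF. Mcam of the same list averaged higher in mutant (38.3 CPM) than in WT MEF (24.2), and reached 277% of its WT mean in sgPrrx1 wound-healing fibroblasts. Of the mural and muscle markers tested, 3 fell and 1 rose in mutant MEF, and 4 fell and 1 rose in sgPrrx1 MEF. In wound-healing fibroblasts 2 fell and 2 rose, and in MMTV-CAF 5 fell and 0 rose. Of all genes tested, 30.5%, 22.8%, 39.3% and 41.9% fell in the same order, and 29.4%, 20.3%, 38.3% and 41.2% rose. Of the 7 immune markers, Csf1r averaged 5.60 CPM in WT and 0.19 in sgPrrx1 MMTV-CAF. All 3 immune markers tested were lower there, as were 41.9% of all genes. Of the epithelial ones Krt19 averaged between 0.18 CPM in sgPrrx1 MMTV-CAF and 219 CPM in mutant MEF. The part of such cells in the results below was not tested.

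Prrx1 and Prrx2 are paired-related homeobox factors, which bind TAAT-containing DNA and act together in limb and craniofacial mesenchyme. Twist1 and Twist2 are basic helix-loop-helix factors that bind E-boxes (CANNTG), while the zinc-finger factors Snai1, Snai2, Zeb1 and Zeb2 occupy related E-boxes and are known as repressors of epithelial genes. Tcf21 and Osr1 mark mesenchymal progenitors of several organs.

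Prrx1 (GRCm38.p6, chr1:163245119-163315145, minus strand), the targeted gene, was read at different levels in the 3 types before any loss. The 250 bases before 1 of its RefSeq transcript starts are shown because every loss comparison turns on this gene (chr1:163313651-163313900, minus strand, GRCm38.p6). This start is internal, and the window lies inside the annotated gene and not before its outermost start. Capitals mark TAAT or its reverse complement ATTA.

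Prrx1: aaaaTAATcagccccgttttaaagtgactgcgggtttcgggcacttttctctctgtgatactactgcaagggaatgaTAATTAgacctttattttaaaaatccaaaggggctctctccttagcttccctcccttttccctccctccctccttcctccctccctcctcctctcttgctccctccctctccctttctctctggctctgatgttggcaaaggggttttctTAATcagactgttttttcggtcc

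The first match in this window lies 246 bases before that start and the last 23 bases before it. Of all 32851 RefSeq promoter windows of this length, 54.9% hold TAAT or ATTA on either strand, so a match is common and is a description only.

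In WT MEF, Prrx1 stood at 192, 166 and 184 CPM, with the 21 samples scaled jointly by TMM. The WT wound-healing fibroblasts gave 146, 143 and 152 CPM. WT MMTV-CAF gave 627, 632 and 636 CPM. No sample of a type reached into the range of another, and MMTV-CAF lay 3.39-fold above MEF (log2 difference 1.76, SE 0.06, adjusted p = 7.00e-09) and 4.08-fold above wound-healing fibroblasts (2.03, SE 0.06, adjusted p = 2.54e-09).

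Prrx1 was lower in all loss groups and absent from none. The mutant MEF held 26.1, 20.7 and 19.9 CPM, a fall by 3.04 on the log2 scale (SE 0.14, adjusted p = 6.83e-06). In sgPrrx1 MEF the values were 126, 94.9 and 140 CPM. These samples spread the widest of any group and fell by 0.60 (SE 0.14, adjusted p = 0.0145). sgPrrx1 wound-healing fibroblasts held 65.3, 64.2 and 65.1 CPM, a fall by 1.18 (SE 0.03, adjusted p = 1.72e-09). In sgPrrx1 MMTV-CAF the values were 308, 309 and 301 CPM, and the fall was by 1.06 (SE 0.02, adjusted p = 7.22e-10). The edited MMTV-CAF thus still carried more Prrx1 transcript than any WT MEF or WT wound-healing sample. RNA-seq counts do not tell an edited transcript from an intact one, and an edit need not lower the transcript, so the counts do not measure how much functional Prrx1 was lost. In bulk samples fewer cells with a transcript and less of it per cell cannot be told apart.

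**Figure D1:**
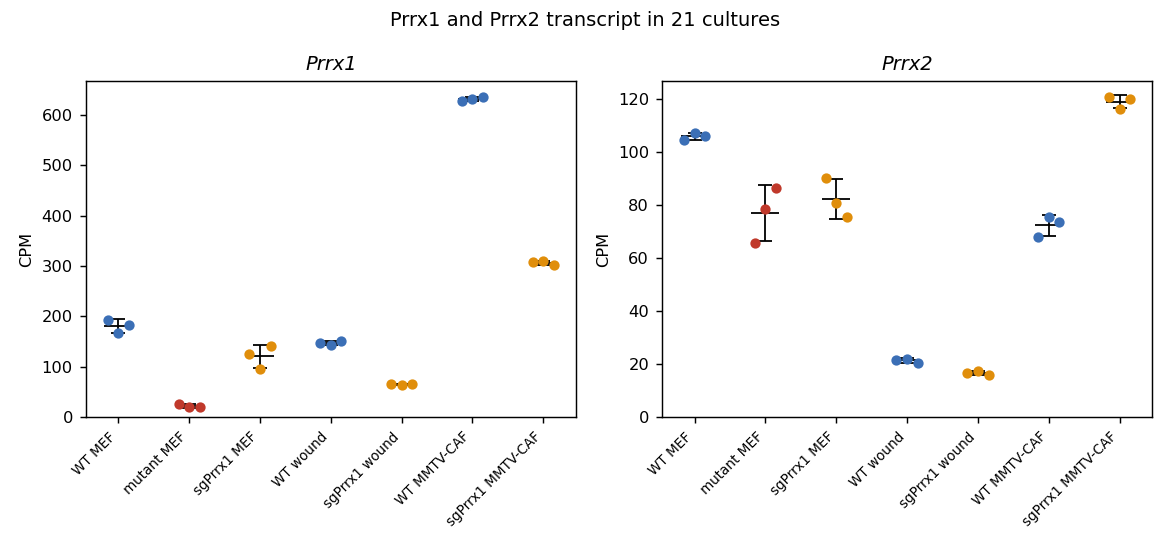
CPM (y axis) of Prrx1 and Prrx2 in each sample (points) by group (x axis), with the group mean and SD (bars, n = 3). Prrx1 averaged 632 CPM in WT MMTV-CAF and 22.2 in mutant MEF, and Prrx2 was higher in sgPrrx1 than in WT MMTV-CAF.

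Prrx2 (chr2:30845064-30881251, plus strand), the paralog, fell with Prrx1 in MEF and wound-healing fibroblasts and rose in MMTV-CAF. WT MEF held 104, 107 and 106 CPM of it. Mutant MEF, at 65.5, 78.5 and 86.3 CPM, and sgPrrx1 MEF, at 90.1, 80.8 and 75.3 CPM, all lay below these. The falls were by 0.49 (SE 0.10, adjusted p = 0.00548) and by 0.38 (SE 0.08, adjusted p = 0.00914), and the mutant and edited MEF did not differ from each other past the threshold (log2 difference 0.10, SE 0.12, adjusted p = 0.482). Wound-healing fibroblasts had the least Prrx2, with 21.6, 22 and 20.4 CPM in WT and 16.4, 17.2 and 15.9 in sgPrrx1 samples. This was a fall by 0.38 (SE 0.04, adjusted p = 5.49e-05). WT MMTV-CAF held 67.9, 75.5 and 73.5 CPM and sgPrrx1 MMTV-CAF 121, 116 and 120 (log2 fold change 0.70, SE 0.04, adjusted p = 1.06e-06). Of the 7 groups, sgPrrx1 MMTV-CAF thus had the highest mean level of Prrx2.

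Sums of marker genes, and the genes named as leading them, are in CPM without regard to length. Levels of different members were compared per kilobase, with the union of annotated exons as the length. For Prrx1 this union is 11.069 kb and for Prrx2 1.951 kb. A shorter isoform of Prrx1 would raise its value per kilobase alike only if every group expressed it, which was not tested. Which paralog leads in WT MEF rests on these lengths. Without regard to length, WT MEF averaged 181 CPM of Prrx1 and 106 of Prrx2. Per kilobase, Prrx2 exceeded Prrx1 3.33 ± 0.29 times in WT MEF (SD, n = 3), against 0.83 ± 0.06 times in WT wound-healing fibroblasts and 0.65 ± 0.03 times in WT MMTV-CAF. In all loss groups the mean ratio was higher than in WT, at 20.1 ± 5.37 in mutant MEF, 1.44 ± 0.07 in sgPrrx1 wound-healing fibroblasts and 2.20 ± 0.07 in sgPrrx1 MMTV-CAF, with no overlap between samples. In sgPrrx1 MEF, at 3.98 ± 0.90, the range of 3.04 to 4.83 covered the WT range. The rule used no ratio, but a fall of Prrx1 by itself raises it.

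Tcf21 (chr10:22817263-22820143), a helix-loop-helix factor of organ mesenchyme, had 0 counts in all 21 samples, was not tested and is left out of the counts of members. A count of 0 allows up to 0.0444 CPM in the sample with the smallest scaled library.

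Of the 9 members with counts, 7 changed in mutant MEF (5 lower, 2 higher), where 59.9% of all genes tested did (30.5% lower, 29.4% higher). In sgPrrx1 MEF 6 changed (5 lower, 1 higher), against 43.1% of genes (22.8% lower, 20.3% higher), a split that became 1200 lower and 211 higher among genes with at least a 2-fold change. All 9 changed in sgPrrx1 wound-healing fibroblasts (6 lower, 3 higher), against 77.6% of genes (39.3% lower, 38.3% higher). In sgPrrx1 MMTV-CAF 7 changed (4 lower, 3 higher), against 83.1% of genes (41.9% lower, 41.2% higher). The targeted gene is among the members in each count, and with so many genes changed the counts alone set the members little apart.

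**Figure D2:**
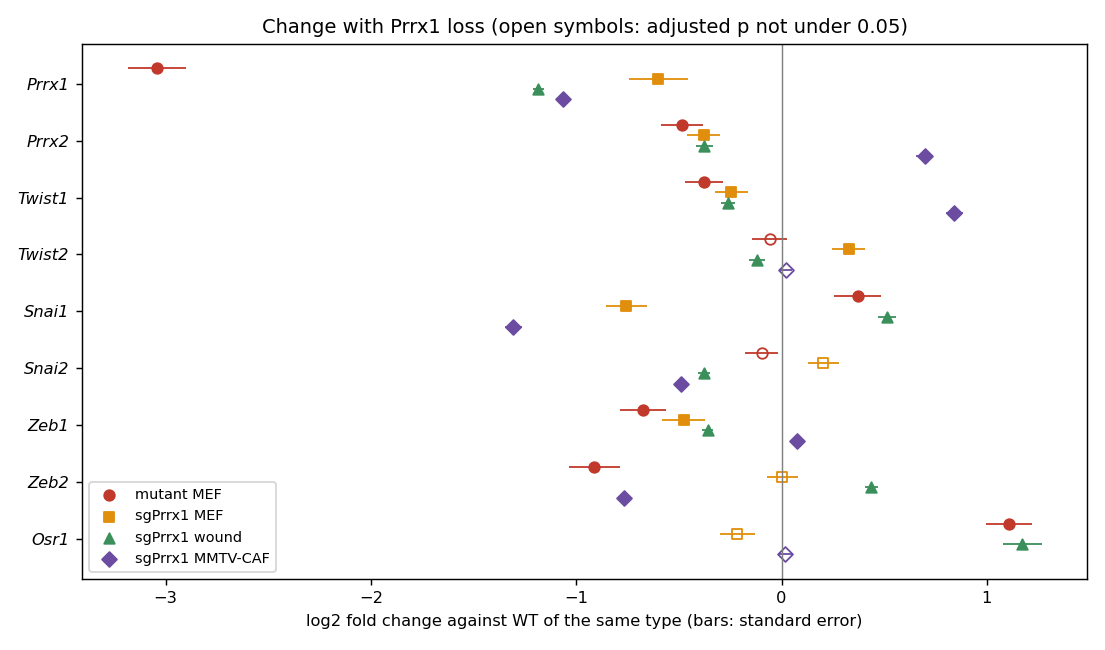
Log2 fold change (x axis) of the 9 members with counts (y axis) against WT of the same type in the 4 loss groups, with bars for the standard error and open symbols where the adjusted p was not under 0.05. Prrx1 lies below 0 in every group, whereas each of the other members lies on both sides.

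Twist1 (chr12:33957671-33959831), required for cranial mesenchyme, followed the directions of Prrx2. WT MEF held 55.2, 56.3 and 54.9 CPM, mutant MEF 42.4, 39.2 and 48.5, and sgPrrx1 MEF 52.6, 45.3 and 43.9. It fell by 0.38 in mutant MEF (SE 0.09, adjusted p = 0.0102) and by 0.24 in sgPrrx1 MEF (SE 0.08, adjusted p = 0.0480), the latter call being lost without any single sample but sgPrrx1 replicate 1 (adjusted p from 0.0706 to 0.175) and with no filter on low counts (0.0606). In wound-healing fibroblasts it went from 36.7, 36.8 and 35.8 CPM to 30.5, 31.9 and 29.2, a fall by 0.26 (SE 0.04, adjusted p = 0.000156). In MMTV-CAF it went from 30.8, 32.6 and 29.8 CPM up to 58.5, 54.7 and 56.1 (log2 fold change 0.84, SE 0.04, adjusted p = 3.65e-07). The sgPrrx1 MMTV-CAF samples overlapped with WT MEF, which had the next highest mean level.

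Twist2 (chr1:91801461-91848034), its paralog, known from dermal fibroblasts, had the narrowest range of group means, 1.83-fold. It averaged 45.4 ± 1.58 CPM in WT MEF, 44.4 ± 4.2 in mutant MEF and 57.6 ± 5.15 in sgPrrx1 MEF (SD, n = 3 each). The rise in sgPrrx1 MEF was by 0.33 (SE 0.08, adjusted p = 0.0166; 0.0520 and 0.0540 without WT replicate 1 or 2), and the difference in mutant MEF (-0.06, SE 0.09, adjusted p = 0.585) did not pass. Wound-healing fibroblasts averaged 34.02 ± 0.84 CPM in WT and 31.4 ± 1.44 in sgPrrx1 samples (SD, n = 3 each), a fall by 0.12 (SE 0.04, adjusted p = 0.0183) that did not pass with library totals alone (adjusted p = 0.913), with all 21 samples in 1 model (0.151) or without WT replicate 2, sgPrrx1 replicate 2 or sgPrrx1 replicate 3 (adjusted p from 0.0540 to 0.0651). In MMTV-CAF, at 46.2 ± 1.46 and 47.5 ± 0.72 CPM (SD, n = 3 each), the difference was 0.02 (SE 0.03, adjusted p = 0.556), but 0.153 with library totals alone (adjusted p = 0.00169).

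Snai1 (chr2:167538195-167542814), the Snail repressor, went in opposite directions in groups that had all lost Prrx1 transcript. Its window of 250 bases upstream is shown because its change in sgPrrx1 samples differed most between the types (chr2:167537945-167538194, plus strand, GRCm38.p6). Capitals mark CACCTG, the reverse complement of CAGGTG, the E-box favored by Snail and Zeb factors.

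Snai1: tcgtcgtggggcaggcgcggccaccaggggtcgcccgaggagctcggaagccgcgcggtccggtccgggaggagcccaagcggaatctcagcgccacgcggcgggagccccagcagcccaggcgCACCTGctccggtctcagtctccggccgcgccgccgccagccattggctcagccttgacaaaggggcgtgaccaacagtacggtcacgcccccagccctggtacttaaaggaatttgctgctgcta

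This match starts 126 bases before the start, and 17.2% of all promoter windows hold CAGGTG or CACCTG. Windows were found for 7 of the 10 members (not for Osr1, Snai2 and Zeb1), 10 windows in all with 4 for Zeb2. CANNTG occurred in 1 of these 10, that of Snai1, whereas 66.2% of all windows hold it. Some of the Zeb2 windows overlap each other, and this share is a description only.

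WT MEF held 40.8, 41.2 and 39.4 CPM of Snai1. Mutant MEF were above, at 44.3, 54.2 and 61.2 CPM (log2 fold change 0.37, SE 0.12, adjusted p = 0.0272), a call lost without any single sample but mutant replicate 1 (adjusted p from 0.0653 to 0.0830). sgPrrx1 MEF lay below WT, at 27.4, 23.8 and 21.4 CPM (fall by 0.76, SE 0.10, adjusted p = 0.00130). The edited MEF differed from mutant MEF directly, by -1.13 (SE 0.14, adjusted p = 0.000744). In wound-healing fibroblasts Snai1 rose from 25.6, 25.2 and 23.4 CPM to 35.6, 36.7 and 33.8 (log2 fold change 0.51, SE 0.04, adjusted p = 7.25e-06). In MMTV-CAF it fell from 66.1, 72.1 and 65.2 CPM to 27.5, 28.3 and 27.5 (by 1.31, SE 0.04, adjusted p = 2.72e-08). No sgPrrx1 MMTV-CAF sample reached the range of WT MMTV-CAF.

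Snai2 (chr16:14705852-14709395), the Slug repressor, fell in wound-healing fibroblasts and MMTV-CAF. The WT wound-healing samples held 43.2, 45.2 and 45.6 CPM and the sgPrrx1 samples 34.4, 34.6 and 34.6 (fall by 0.38, SE 0.03, adjusted p = 3.22e-06). WT MMTV-CAF held 107, 99.9 and 107 CPM, the highest of any group, and sgPrrx1 MMTV-CAF 75.9, 77.2 and 74.2 (fall by 0.49, SE 0.03, adjusted p = 2.20e-06). In MEF neither loss group passed. The difference was -0.10 in mutant (SE 0.08, adjusted p = 0.335) and 0.20 in sgPrrx1 samples (SE 0.08, adjusted p = 0.0655), although all 3 of the latter lay above WT, and the last difference passed with DESeq2 (adjusted p = 0.0473), with all 21 samples in 1 model (0.00131) and without WT replicate 3 (0.0369).

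Zeb1 (chr18:5591327-5775468) fell in MEF and wound-healing fibroblasts. WT MEF held 127, 118 and 96.7 CPM, and neither mutant MEF (71.3, 72.3 and 73.9) nor sgPrrx1 MEF (84.7, 81.6 and 81.2) reached that range. The falls were by 0.67 (SE 0.11, adjusted p = 0.00202) and by 0.48 (SE 0.11, adjusted p = 0.0109). In wound-healing fibroblasts it averaged 50.4 ± 0.31 CPM in WT and 39.3 ± 0.75 in sgPrrx1 samples (SD, n = 3 each), a fall by 0.36 (SE 0.03, adjusted p = 2.23e-06). In MMTV-CAF, at 68.3 ± 2.09 and 72.9 ± 1.20 CPM (SD, n = 3 each), the rise by 0.08 (SE 0.03, adjusted p = 0.0340) did not pass under RLE scaling (adjusted p = 0.0530), with all 21 samples in 1 model (0.219) or without WT replicate 1, WT replicate 2 or sgPrrx1 replicate 3 (adjusted p from 0.0920 to 0.132).

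Zeb2 (chr2:44983512-45117442) overlaps the antisense gene Zeb2os, and the strand setting of the counting is not given. Prrx1, Twist2, Zeb1 and Tcf21 overlap other annotated genes too, so the same limit may hold for them. Zeb2os averaged at most 2.64 CPM in any group. Zeb2 fell in mutant MEF, from 68.1, 69.5 and 60.2 CPM to 37.9, 38.6 and 30.2 (by 0.91, SE 0.12, adjusted p = 0.000808). sgPrrx1 MEF, at 66.9, 65.6 and 67.5 CPM, lay within the WT range, and the direct difference between edited and mutant MEF was 0.91 (SE 0.11, adjusted p = 0.000558). It rose in wound-healing fibroblasts from 49.9, 53.3 and 50.6 CPM to 69.0, 69.9 and 69.8 (log2 fold change 0.44, SE 0.03, adjusted p = 1.92e-06). In MMTV-CAF it fell from 159, 149 and 153 CPM to 92.5, 91.3 and 90.9 (by 0.77, SE 0.03, adjusted p = 4.25e-08).

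Osr1 (chr12:9574442-9581500), a factor of intermediate mesoderm and of fibro-adipogenic progenitors, had the widest range of levels, 42.9-fold between the group means. WT wound-healing fibroblasts held 2.78, 2.74 and 2.43 CPM and the sgPrrx1 samples 6.12, 6.40 and 5.46. This was a 2.25-fold rise from a low level (log2 fold change 1.17, SE 0.10, adjusted p = 4.82e-06). Mutant MEF, at 35.5, 31.0 and 29.4 CPM, were 2.16-fold above WT MEF, at 14.3, 13.7 and 15.8 (log2 fold change 1.11, SE 0.11, adjusted p = 0.000212). sgPrrx1 MEF, at 12.1, 12.7 and 13.3 CPM, lay just below WT without passing (-0.22, SE 0.09, adjusted p = 0.0796; 0.0333 with all 21 samples in 1 model), and 1.33 lower on the log2 scale than mutant MEF (SE 0.10, adjusted p = 6.44e-05). MMTV-CAF held 107, 115 and 110 CPM in WT and 115, 117 and 109 in sgPrrx1 samples, which overlapped (0.02, SE 0.04, adjusted p = 0.649), although library totals alone gave 0.152 (adjusted p = 0.00522).

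**Figure D3:**
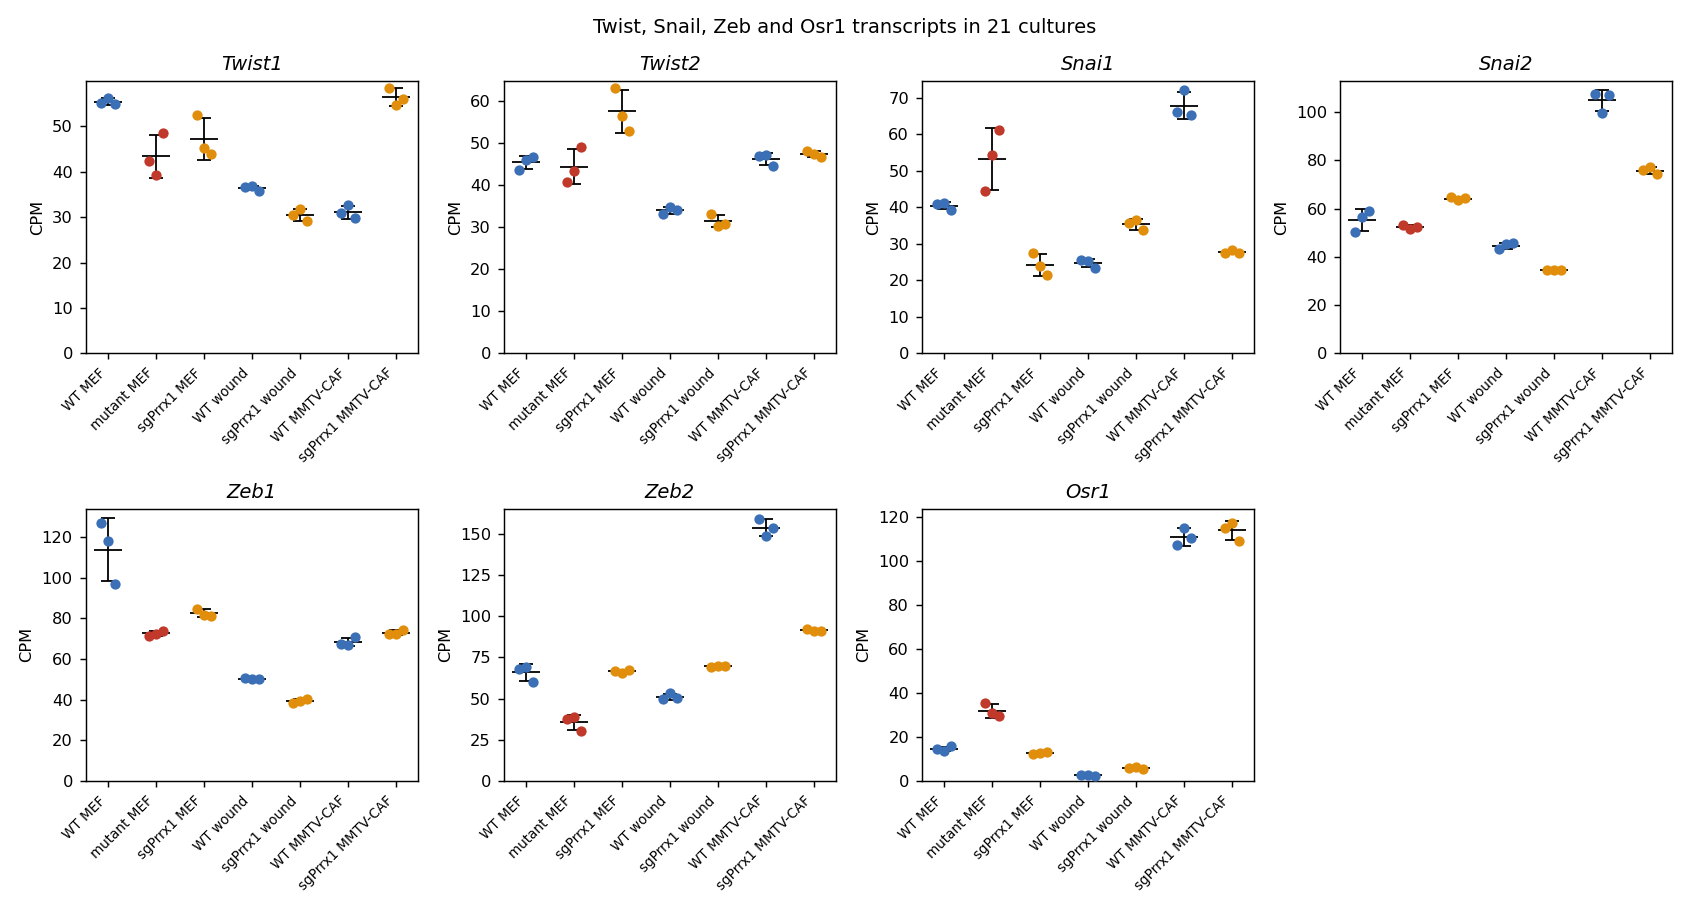
CPM (y axis) of the 7 other members with counts in each sample (points) by group (x axis), with the group mean and SD (bars, n = 3). Osr1 averaged 111 CPM in WT MMTV-CAF and 2.65 in WT wound-healing fibroblasts.

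WT fibroblasts of the 3 types differed in nearly every member. Against WT MEF, all 9 were lower in WT wound-healing fibroblasts, where 80.3% of genes differed (39.4% lower, 40.9% higher). The largest of these differences were those of Osr1 (-2.43, SE 0.07, adjusted p = 4.36e-09) and Prrx2 (-2.28, SE 0.05, adjusted p = 1.40e-09). In WT MMTV-CAF 3 members were lower and 5 higher than in WT MEF, against 79.2% of genes (38.6% lower, 40.6% higher). Osr1 was 7.36-fold higher (log2 difference 2.88, SE 0.07, adjusted p = 9.67e-10) and Zeb2 2.26-fold higher (1.17, SE 0.06, adjusted p = 1.67e-07), while Twist1 was lower (-0.88, SE 0.04, adjusted p = 7.82e-08). Against WT wound-healing fibroblasts, WT MMTV-CAF had 8 members higher and Twist1 lower, where 80.4% of genes differed (41.1% lower, 39.4% higher).

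Between the MEF with the edit and those with the mutant allele, 7 of 9 members differed (2 lower, 5 higher in sgPrrx1 MEF), against 56.2% of genes (28.4% lower, 27.8% higher). Prrx1 was 5.43-fold higher in sgPrrx1 MEF (log2 difference 2.44, SE 0.18, adjusted p = 6.79e-05). Twist2 (0.38, SE 0.10, adjusted p = 0.0156; 0.0659 without mutant replicate 2), Snai2 (0.30, SE 0.06, adjusted p = 0.00401) and Zeb1 (0.19, SE 0.06, adjusted p = 0.0231) were higher as well. The call for Zeb1 was lost without any single sample but mutant replicate 1 (adjusted p from 0.0537 to 0.0918), with upper-quartile scaling (0.0566) and with library totals alone (0.193).

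Whether the change in sgPrrx1 samples differed between the 3 types was tested in 1 model of 18 samples, and it did for all 9 members with counts, as it did for 80.1% of all genes. That model scales all 18 samples together, so its values differ slightly from those above. Of the 9, Snai1 spread the widest between types, from a log2 change of 0.46 in wound-healing cells to -1.31 in MMTV-CAF (adjusted p = 1.004e-09). For Prrx2 the change was -0.40 in MEF, -0.43 in wound-healing cells and 0.70 in CAF (adjusted p = 6.69e-09), and for Twist1 -0.26, -0.31 and 0.84 in the same order (adjusted p = 5.55e-09). For Prrx1 itself it was -0.62, -1.24 and -1.07 (adjusted p = 0.00145).

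Balance within the other pairs shifted as well. Per kilobase, Snai2 exceeded Snai1 1.45 ± 0.11 times in WT wound-healing fibroblasts and 0.78 ± 0.03 times after loss (SD, n = 3 each). The opposite shift was seen in MMTV-CAF, from 1.24 ± 0.12 to 2.18 ± 0.02. Zeb2 over Zeb1 went from 0.64 ± 0.03 to 1.12 ± 0.01 in wound-healing fibroblasts and from 1.42 ± 0.06 to 0.79 ± 0.02 in MMTV-CAF. Twist2 over Twist1 went from 1.81 ± 0.05 to 1.02 ± 0.03 in MMTV-CAF. In MEF this ratio was higher after loss, at 0.996 ± 0.036 in WT, 1.25 ± 0.09 in mutant and 1.48 ± 0.03 in sgPrrx1 samples. Snai2 over Snai1 went from 1.09 ± 0.11 in WT MEF down to 0.80 ± 0.14 in mutant and up to 2.14 ± 0.26 in sgPrrx1 MEF, and Zeb2 over Zeb1 likewise from 0.37 ± 0.03 to 0.31 ± 0.05 and 0.51 ± 0.01. In none of these did WT samples overlap with those of a loss group. Twist2 over Twist1 in wound-healing fibroblasts, at 1.14 ± 0.03 in WT and 1.25 ± 0.08 in sgPrrx1 samples, had ranges that met. Ratios were not tested.

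**Figure D4:**
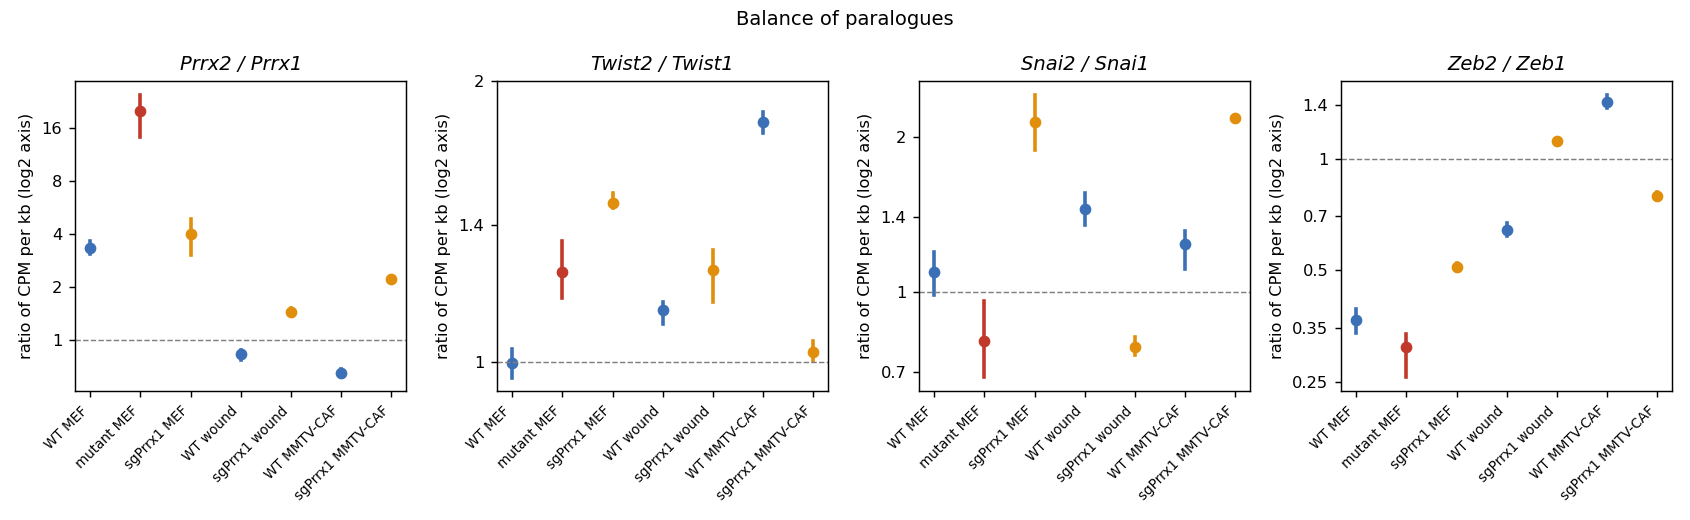
Ratio of CPM per kilobase of exon between paralogs (y axis, log2 scale) by group (x axis); points are means of 3 samples, lines run from the lowest to the highest sample, and the dashed line marks a ratio of 1. Prrx2 over Prrx1 averaged 20.1 in mutant MEF, and Snai2 over Snai1 moved up in MMTV-CAF and down in wound-healing fibroblasts.

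Over all 21 samples, the genes most like Prrx1 in log2 CPM were Cped1 (Pearson r = 0.975), Sh3bp5 (0.970) and Fam63b (0.968). Those most like Prrx2 were Fgfr2 (0.991), AU040320 (0.981) and Gm8801 (0.974). Among members, Prrx1 and Zeb2 (0.883) and Prrx2 and Zeb1 (0.881) were the closest pairs and Twist1 and Snai1 (-0.308) the farthest apart. These correlations describe 7 groups of 3 related samples and carry no test.

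Partners and antagonists of the Twist factors were read from a list of 7 genes, Tcf3, Tcf4, Tcf12 and Id1 to Id4. In wound-healing fibroblasts 5 of them rose and 0 fell, with a median log2 change of 1.1 against 0.0044 over all genes, of which 38.3% rose and 39.3% fell. In sgPrrx1 MEF 4 fell and 1 rose (median -0.31; 22.8% and 20.3% of all genes), and in MMTV-CAF 3 fell and 3 rose (median -0.26; 41.9% and 41.2%). Id1, an inhibitor of helix-loop-helix factors, rose by 1.81 in wound-healing fibroblasts (SE 0.03, adjusted p = 1.61e-10) and fell by 0.89 in sgPrrx1 MEF (SE 0.19, adjusted p = 0.0101) and by 0.73 in MMTV-CAF (SE 0.04, adjusted p = 1.07e-06). In mutant MEF Id3 alone of the 7 passed (log2 fold change 1.61, SE 0.11, adjusted p = 3.52e-05), where 59.9% of all genes changed and 29.4% rose.

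Of 10 mesenchymal genes linked to these factors (Acta2, Cdh2, Cdh11, Fn1, Pdgfra, Postn, S100a4, Tagln, Tnc and Vim), 8 fell in mutant MEF, 8 in edited MEF, 8 in edited wound-healing cells and 9 in edited CAF. Of all genes, 30.5%, 22.8%, 39.3% and 41.9% fell in the same order. This list, like the others, was chosen with earlier results of these data known, so the contrast is a description and carries no test. Those of the list that rose were Fn1, fibronectin, in mutant MEF (log2 fold change 0.51), Cdh2, N-cadherin, and Vim, vimentin, in edited MEF (0.43 and 0.35), Cdh2 and Fn1 in edited wound-healing cells (1.04 and 0.53), and Pdgfra, a PDGF receptor, in edited CAF (0.95). The median log2 changes were -0.96, -0.82, -0.85 and -1.81, while those of all genes lay between -0.0032 and 0.0094. Postn, a matrix protein of activated fibroblasts, had log2 changes of -5.14, -2.08, -2.77 and -7.40 in the same order, and Acta2, smooth muscle actin, of -1.04, -1.05, -1.12 and -3.93, all past the threshold. The fibroblast markers share Vim and Pdgfra with this list. The summed CPM of the 10 fibroblast markers was lower in every loss group too, from a mean of 31942 to 15876 in MMTV-CAF, and its part in these results was not tested. That sum is carried by its most abundant genes, and not every marker fell. Of the markers that passed the filter, 8 of 8 fell in mutant MEF, 7 of 8 in edited MEF (Vim rose), 10 of 10 in edited wound-healing cells and 7 of 9 in edited CAF, where Dcn, the proteoglycan decorin, rose from 32.4 ± 0.78 to 588 ± 8.70 CPM and Pdgfra from 939 ± 16.8 to 1835 ± 6.20 (SD, n = 3 each).

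Epithelial genes, classical targets of Snail and Zeb repressors, were mostly near the floor of detection. Of 15 such genes and regulators, 2 or 3 passed the filter on low counts in each loss comparison, and Esrp2 was the only one to average over 1 CPM in any group. Esrp2, an epithelial splicing regulator, averaged 2.13 ± 0.29 CPM in WT and 7.08 ± 1.91 in mutant MEF (SD, n = 3 each; log2 fold change 1.71, SE 0.22, adjusted p = 0.000571). It also rose in wound-healing fibroblasts, from 2.29 ± 0.23 to 5.47 ± 0.28 CPM (SD, n = 3 each; 1.25, SE 0.10), and fell in sgPrrx1 MEF (-1.30, SE 0.18) and in edited CAF (-0.54, SE 0.09), all past the threshold. Cdh1, E-cadherin, averaged 0.50 CPM in WT MEF and 0.02 in mutant MEF, and no group exceeded the former. The sum of 7 epithelial markers was led in every group by Krt19, at 219 CPM in mutant and 12.3 in WT MEF. In MMTV-CAF Krt19 fell from 52.9 ± 1.08 CPM in WT to 0.18 ± 0.03 in sgPrrx1 samples (SD, n = 3 each; log2 fold change -8.18, SE 0.07, adjusted p = 5.55e-11). In wound-healing fibroblasts Krt19 rose from 43.3 ± 1.80 to 58.5 ± 2.03 CPM, while mean Krt18 went down from 12.8 ± 0.88 to 9.19 ± 0.62 (SD, n = 3 each). Between WT and mutant MEF, Krt14 went from 5.88 CPM to 0 and Krt18 from 0 to 0.59, with Krt5 and Epcam at 0 counts in both. The part of Krt19-expressing cells in the results for MEF, wound-healing fibroblasts and MMTV-CAF was not tested.

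Of 12 relatives of the members, 5 to 8 passed the filter in a loss comparison. In mutant MEF 2 of 6 fell and 3 rose, in sgPrrx1 MEF 3 of 5 fell and 0 rose, in edited wound-healing cells 4 of 8 fell and 4 rose, and in edited CAF 2 of 6 fell and 4 rose. Of all genes, 30.5%, 22.8%, 39.3% and 41.9% fell in the same order, and 29.4%, 20.3%, 38.3% and 41.2% rose. Alx1, a paired-type homeobox gene, had 0 counts in all 3 mutant MEF samples and averaged 9.88 ± 0.85 CPM in WT and 10.0 ± 0.69 in sgPrrx1 MEF (SD, n = 3 each). Osr2, the paralog of Osr1, rose by 1.27 in mutant MEF (SE 0.13, adjusted p = 0.000199) and by 4.49 in MMTV-CAF (SE 0.11, adjusted p = 7.54e-09). It fell by 1.23 in sgPrrx1 MEF (SE 0.22, adjusted p = 0.00524) and by 1.20 in wound-healing fibroblasts (SE 0.25, adjusted p = 0.00189). Another list held 7 genes linked to TGF-beta, a known inducer of Snail and Zeb genes (Tgfbr1, Tgfbr2, Smad2, Smad3, Smad4, Smad7 and Hmga2). These genes have different roles, so counts of direction do not give the activity of the pathway. Of the 7, 4 fell and 1 rose in mutant MEF and in MMTV-CAF. In sgPrrx1 MEF 2 fell and 2 rose, and in wound-healing fibroblasts 3 fell and 3 rose. Among all genes 59.9%, 83.1%, 43.1% and 77.6% changed in these 4 comparisons, so 4 to 6 of 7 is near the background.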

How the data were processed

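The authors deposited 3 tables of counts, whole numbers of reads per gene without normalization. Per the labels, paired-end libraries were trimmed with Trimmomatic, aligned with STAR to mm10 and counted with HTSeq. The supplement of the paper also names ComBat-seq, a batch correction, for its bulk RNA-seq. Whether it was applied to the counts used here is not clear. The annotation and strand setting are not given in the sources used here. All columns had a sample. Columns of wound-healing fibroblasts name no cell type and were assigned by elimination. Those of mutant MEF are headed KlI, which was read as the genotype KI.

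Counts were tested in R 4.3.3 with edgeR 4.0.16 (filterByExpr with the group, TMM, glmQLFit and glmQLFTest), with p-values adjusted by Benjamini-Hochberg over all genes and called under 0.05. Only the 6 samples of a comparison entered its model. WT types shared a model of 9 samples. The SE is the absolute log2 fold change divided by the square root of F. With 3 against 3 samples an exact permutation test cannot go below p = 0.1. Levels are CPM after joint TMM, and correlations used log2 CPM with a prior count of 2. Exon lengths came from Gencode M1 and coordinates and promoters from RefSeq on GRCm38.p6. Steps were tested on simulated data. Alternatives were DESeq2 1.42.0, other scalings, other filters, a minimum fold of 2, all samples in 1 model, a replicate block and each sample left out. The members and lists were chosen with earlier results of these data known. The text names all members, examples from the lists, and the 3 genes most correlated with Prrx1 and with Prrx2.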

Additional observations from a re-analysis of the deposited data

Results flagged for a closer look

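The change of each member in sgPrrx1 samples differed between MEF, wound-healing fibroblasts and MMTV-CAF by a test of the interaction (edgeR, 18 samples). The largest minus the smallest log2 change was 1.77 for Snai1, 1.35 for Osr1, 1.15 for Twist1, 1.15 for Zeb2 and 1.13 for Prrx2. It was 0.67 for Snai2, 0.62 for Prrx1, 0.57 for Zeb1 and 0.48 for Twist2. The same test passed for 80.1% of all genes, so a difference between types was the rule in these samples.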

How the results depend on the processing

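Of 1395 alternative values for single members, 1297 kept their direction and side of the threshold, 76 lost the call, 6 gained it and 16 changed sign. Every change of sign was in a difference that had not passed. Twist2 in mutant MEF became 0.0261 with library totals alone. Zeb2 in sgPrrx1 MEF became -0.000403 with DESeq2, -0.000659 with RLE scaling, -0.0297 with upper-quartile scaling and -0.0114 with library totals alone. Over the samples left out, it ran from -0.0590 to 0.0447. In MMTV-CAF, Osr1 ran from -0.00381 to 0.0511 and Twist2 from -0.0129 to 0.0339. Prrx2 between sgPrrx1 and mutant MEF ran from -0.00165 to 0.189. Twist2 between WT MMTV-CAF and WT MEF became 0.0690 with library totals alone, 0.0261 with no filter and 0.0243 with all 21 samples in 1 model, and ran from -0.0447 to 0.0376 over the samples left out. The cause was not tested.

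Requiring at least a 2-fold change left fewer calls by construction. Genes called were then 3283 in mutant MEF, 1411 in sgPrrx1 MEF (14.95% of them higher, against 47.1%), 2179 in wound-healing fibroblasts, 3377 in MMTV-CAF, 2838 between the MEF loss groups, 5589 and 4908 for WT wound-healing fibroblasts and WT MMTV-CAF against WT MEF, and 5380 between the last 2 types. Members called were then 2, 0, 2, 2, 3, 3, 3 and 6 in the same order. In sgPrrx1 MEF, genes called ran from 3830 (without WT MEF replicate 2) to 6340 over the samples left out, and were 3834 without sgPrrx1 MEF replicate 2, against 5764. Library totals alone moved the median log2 change of all genes by 0.114 in wound-healing fibroblasts and by 0.133 in MMTV-CAF, and 60.3% of calls in wound-healing fibroblasts were then higher, against 49.3%.

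Same-numbered samples were not treated as paired in the main models. In no comparison did all 3 pairs of deviations correlate over 0.1 (0.100, -0.045 and 0.203 in sgPrrx1 and WT MEF). That does not exclude a pairing. With a replicate block, 4 of 9 members were called between sgPrrx1 and mutant MEF, against 7 (lost were Twist2, Snai2 and Zeb1, with an adjusted p of 0.0841, 0.0570 and 0.149), and Snai1 in mutant MEF had an adjusted p of 0.0704. Genes called between sgPrrx1 and mutant MEF were then 5268, against 7513. In mutant MEF against WT they were 6457, against 8155, whereas in sgPrrx1 MEF against WT they were more, 6629 against 5764.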
